A study of Mus musculus with 32 samples.

Results

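Growth arrest and cell cycle entry genes were followed in mouse liver through 8 genes chosen by name: Cdkn1a, Gadd45a, Gadd45b, Gadd45g, Myc, Ccnd1, Mdm2 and Btg1. Of these, 7 had a probe set of their own, among 22180 genes with one. The only probe set of Gadd45a is paired with 2 gene names, Gadd45a and E230016M11Rik, so that no value is given for Gadd45a. Each of the 7 measured genes was represented by 1 probe set.

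The data are liver expression values of 32 male wild-type C57BL/6NTac mice aged 14 weeks, with 1 array per mouse. After a fast of 10 h, 9 basal and 9 clamped mice were gavaged with 2 g/kg of palm oil, which is high in saturated fat, and 7 basal and 7 clamped mice with water as controls. Basal mice were killed under isoflurane 6 h after the gavage. Clamped mice carried a jugular catheter placed days earlier, and from 6 h received a glucose tracer for 110 min and then insulin (15 pmol/kg/min) with glucose infused to a target glycemia, the hyperinsulinemic-euglycemic clamp, and were killed with ketamine and xylazine. Clamped and basal mice therefore differed in insulin, surgery, infusion, time after the gavage and anaesthetic at once, and their animal numbers did not overlap (15 to 32 clamped, 33 to 52 basal), so that what each of these contributes to a difference between them cannot be told apart.

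Cdkn1a encodes p21, an inhibitor of the cyclin-dependent kinases that drive cells out of G1. The GADD45 proteins are small stress sensors that bind p21, PCNA and the kinase MAP3K4, and Mdm2 encodes the ubiquitin ligase that degrades p53. Btg1 encodes an antiproliferative partner of the mRNA deadenylase. Myc and Ccnd1, which encodes cyclin D1, act on the other side, as drivers of G1 entry that are known to rise in hepatocytes after partial hepatectomy. The adult liver is otherwise almost entirely quiescent.

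Values are log2 expression values, so that a difference of 1 is 2-fold in signal, and they do not allow an exact comparison of level between genes. A place above or below the median gene (1.83, the median over genes of the mean log2 value) is used only as a rough guide to low signal. Medians of the arrays were 1.65 to 1.77, and precision is limited by how many arrays each group has. Hepatocyte markers such as Alb were high in all groups, with a list mean of 10.15 to 10.61 over the arrays. Values were spread less widely in 7 basal arrays, those of the 4 control and 3 palm oil mice with animal numbers of 44 and above, where the interquartile range was 2.44 to 2.54, below the other 9 basal arrays (2.72 to 2.96) and the clamped arrays (2.64 to 2.85). Pancreatic acinar markers averaged over 6 log2 units in 9 basal and 3 clamped arrays. In whole tissue, a change in the number of cells of a type and a change in RNA per cell cannot be told apart.

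The first comparison was between clamped and basal livers. In control mice 4 of the 7 genes rose (Cdkn1a, Gadd45b, Gadd45g and Mdm2), against 4.66% of all genes, and 1 fell (Myc), against 4.09%. In palm oil mice the same 4 rose, against 3.76% of all genes, and none fell, against 3.80%. In either direction, 5 of 7 passed in control mice, against 8.75% of all genes, and 4 of 7 in palm oil mice, against 7.57%. The median difference over the 7 genes was 0.40 in control mice and 0.37 after palm oil, and over all genes it was -0.02 in both. Counts rest on limma's moderated test adjusted over all genes, with a threshold of 0.05. The members were chosen with earlier results of these data known, so that their counts beside all genes are only a description.

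**Figure D1:**
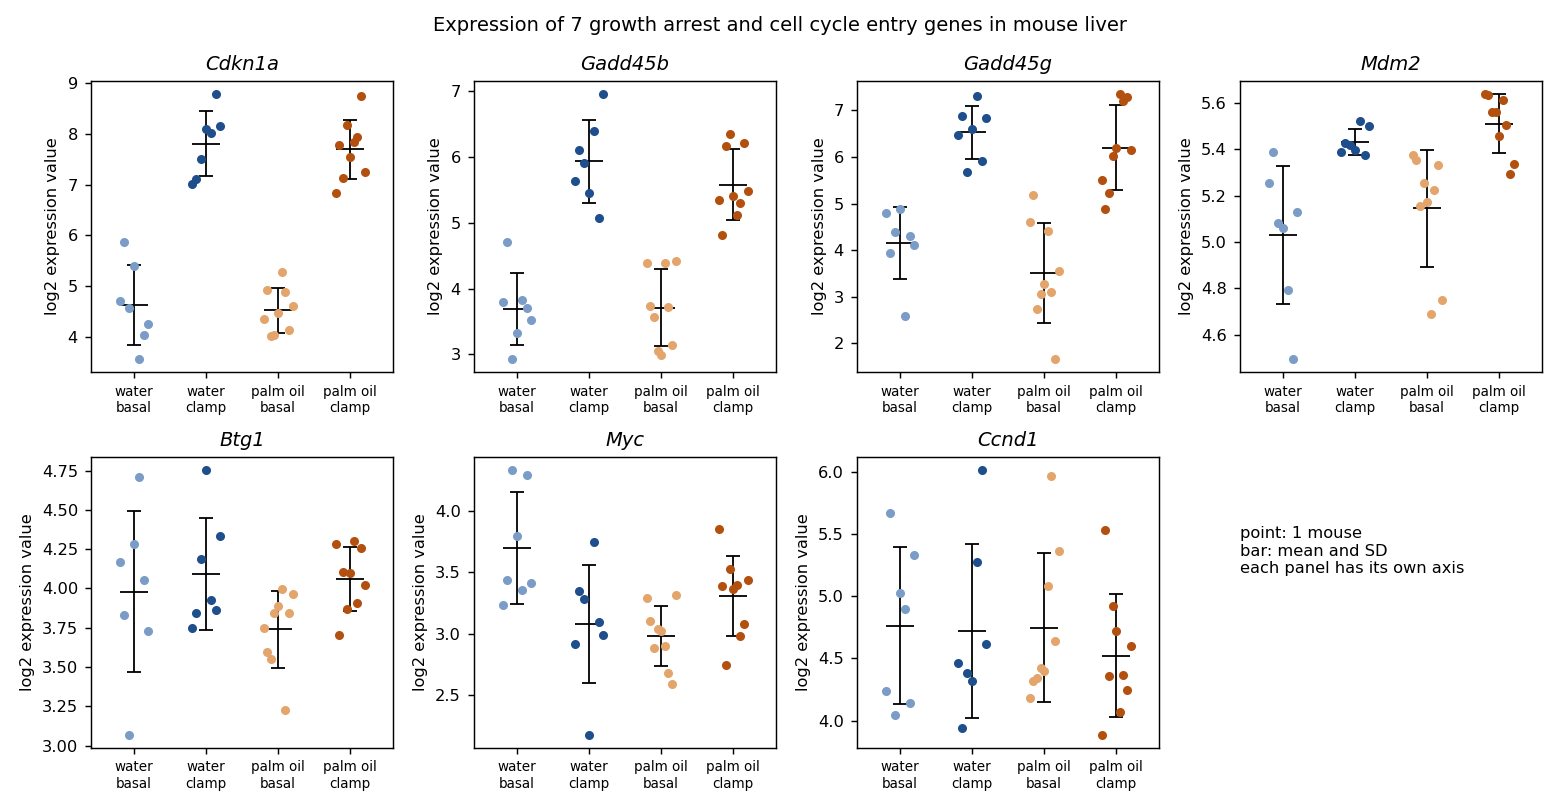
Log2 expression values of the 7 measured genes by group, with 1 point per mouse and bars for the mean and SD (n = 7, 7, 9 and 9 from left to right); each panel has its own axis. Cdkn1a and Gadd45b separate clamped from basal mice without overlap, with control values of Cdkn1a of 3.56 to 5.87 basal and 7.01 to 8.78 clamped, while Ccnd1 and Btg1 overlap in all groups.

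The sequences around the start sites of the 3 genes with the largest rises are shown first, because the GADD45 pair shares features that neither Cdkn1a window holds. Each window runs from 250 bases before the RefSeq start to 50 after it (build GRCm38.p6), 5′ to 3′ on the strand of the gene, and capitals mark the matches of the motifs searched. Gadd45b lies at chr10:80929841-80930140 on the plus strand, Gadd45g at chr13:51846425-51846724 on the plus strand, and Cdkn1a has an upstream start at chr17:29090729-29091028 and a downstream start at chr17:29093519-29093818, both on the plus strand.
Gadd45b: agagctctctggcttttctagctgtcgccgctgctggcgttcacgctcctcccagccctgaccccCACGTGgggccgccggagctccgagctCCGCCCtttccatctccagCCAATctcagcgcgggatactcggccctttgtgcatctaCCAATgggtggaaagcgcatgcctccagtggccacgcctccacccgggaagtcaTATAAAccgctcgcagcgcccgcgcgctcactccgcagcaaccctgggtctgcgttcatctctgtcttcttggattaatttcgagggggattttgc
Gadd45g: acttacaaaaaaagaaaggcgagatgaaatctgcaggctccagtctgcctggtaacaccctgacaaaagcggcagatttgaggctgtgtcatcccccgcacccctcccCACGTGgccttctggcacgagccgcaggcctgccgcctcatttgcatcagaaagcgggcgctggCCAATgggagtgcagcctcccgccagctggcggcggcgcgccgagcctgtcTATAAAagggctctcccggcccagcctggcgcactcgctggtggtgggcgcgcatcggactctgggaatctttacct
Cdkn1a upstream start: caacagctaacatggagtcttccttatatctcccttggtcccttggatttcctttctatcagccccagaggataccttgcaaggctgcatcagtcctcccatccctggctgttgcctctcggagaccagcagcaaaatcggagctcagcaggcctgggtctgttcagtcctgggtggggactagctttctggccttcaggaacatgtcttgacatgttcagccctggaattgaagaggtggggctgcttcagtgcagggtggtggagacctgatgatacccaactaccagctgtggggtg
Cdkn1a downstream start: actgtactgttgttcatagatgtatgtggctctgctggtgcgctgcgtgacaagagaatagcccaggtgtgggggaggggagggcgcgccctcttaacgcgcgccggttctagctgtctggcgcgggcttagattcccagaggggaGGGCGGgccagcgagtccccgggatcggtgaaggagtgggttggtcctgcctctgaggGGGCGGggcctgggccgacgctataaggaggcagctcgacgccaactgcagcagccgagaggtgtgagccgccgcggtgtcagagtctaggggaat

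Both GADD45 windows hold the E-box CACGTG, the site that MYC and MAX bind, with its first base 185 bases before the start in Gadd45b and 142 in Gadd45g. Both also hold the TATA box TATAAA, 46 and 27 bases before the start, and the CCAAT box CCAAT. Gadd45b has a GC box (GGGCGG) on the reverse strand as well. An E-box was present in 7.15% of all 32851 windows, a TATA box in 13.6%, both in 0.670%, a CCAAT box in 37.4% and a GC box in 35.7%. Both strands were searched, and none of the marked matches overlaps another motif.

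The upstream Cdkn1a window held none of the 8 motifs and the downstream one only GC boxes, at 104 and 46 bases before the start. No window of a member held the AP-1 site TGANTCA (7.81% of all windows), the cyclic AMP response element TGACGTCA (1.79%), the STAT site TTCNNNGAA (8.30%) or a glucocorticoid response element (0.475%). That says only that these letters are not in these windows. A p53 binding site was not among the 8 motifs, so that no window was searched for one. The windows of Gadd45a, Mdm2 and Btg1 each held a CCAAT box and at least 1 GC box, and that of Btg1 also a TATA box 26 bases before the start. The GC content of the 7 windows of 6 members lay between 54.7% and 64.7%, against a median of 52.7% over all windows.

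Cdkn1a (chr17:29090979-29100722, GRCm38.p6) showed the largest rise of the 7 genes. Its log2 values ran from 3.56 to 5.87 (median 4.55) in control basal mice and from 7.01 to 8.78 (median 8.02) in control clamped mice. Palm oil mice ran from 4.01 to 5.27 (median 4.46) basal and from 6.84 to 8.75 (median 7.79) clamped. Every clamped array lay above every basal array of the same gavage, and Gadd45b separated in this way too, as did Gadd45g in control mice. Of all genes, 1.39% in control and 0.866% in palm oil mice were separated upwards, and 1.16% and 0.586% downwards, which none of the 7 was.

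The rise of Cdkn1a was 3.19 ± 0.30 (log2, SE, n = 7 and 7) in control mice, or 9.10-fold (95% interval 5.94 to 13.9, limma adjusted p = 7.80e-09). In palm oil mice it was 3.18 ± 0.27 (n = 9 and 9), or 9.05-fold (6.22 to 13.2, limma adjusted p = 2.82e-10). By size it was the 10th largest rise of all genes in control and the 8th largest in palm oil mice. The group means were 7.81 and 7.69 in the clamped and 4.62 and 4.52 in the basal mice, control first, and within either state the gavage groups lay closer together than their SDs of 0.44 to 0.79.

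Gadd45b (chr10:80930091-80932204), which responds to cytokines and inflammatory signals, separated the states in the same way. Its values ran from 2.93 to 4.70 (median 3.71) in control basal and from 5.07 to 6.95 (median 5.92) in control clamped mice. After palm oil the values ran from 2.99 to 4.41 (median 3.73) and from 4.82 to 6.35 (median 5.41). No clamped array fell into the basal range of its gavage group. The rise was 2.24 ± 0.28 in control mice, or 4.74-fold (limma adjusted p = 1.55e-06), and 1.87 ± 0.25 in palm oil mice, or 3.65-fold (limma adjusted p = 2.62e-06).

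Gadd45g (chr13:51846675-51848475), the family member best known as a cytokine-inducible gene, varied widely among palm oil basal mice. Its values ran from 2.58 to 4.89 (median 4.30) in control basal and from 5.68 to 7.31 (median 6.60) in control clamped mice. After palm oil they ran from 1.67 to 5.18 (median 3.26) and from 4.88 to 7.35 (median 6.14). The basal value of 1.67 lay below the median gene at 1.83, where array values are compressed. All 7 control clamped arrays exceeded the basal ones, and in palm oil mice 8 of 9 did. The SD reached 1.07 in palm oil basal mice, the widest of any of the 7 genes in a group.

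The rise of Gadd45g was 2.38 ± 0.43 in control mice, or 5.22-fold (2.85 to 9.55, limma adjusted p = 0.000226). In palm oil mice it was 2.69 ± 0.38, or 6.47-fold (3.80 to 11.0, limma adjusted p = 5.88e-06). Among all rises by size it stood 24th in control mice and 14th after palm oil, and Gadd45b stood 36th and 49th. The rises of Cdkn1a, Gadd45b and Gadd45g passed in all 15 other ways of processing and testing and with any 1 array left out. Their differences in those 15 settings were 2.77 to 3.50, 2.12 to 2.57 and 1.94 to 2.72 in control mice, in that order, and 3.07 to 3.40, 1.82 to 1.95 and 2.17 to 3.43 in palm oil mice.

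Of 9 neutrophil markers 6 rose in each gavage group. The largest rise was that of S100a8, 3.58 ± 0.37 in control and 3.85 ± 0.32 in palm oil mice (limma adjusted p = 3.34e-08 and 2.82e-10). The 9 markers ran from -0.21 to 3.58 (median 1.14) in control and from -0.10 to 3.85 (median 1.19) in palm oil mice. Ngp, Ltf and Camp were called in neither gavage group. The mean level of the 9 markers ran from 1.78 to 2.49 over the basal arrays and from 2.79 to 3.78 over the clamped arrays, and 3 of the 9 stayed below the median gene in the clamped groups. Of 9 Kupffer cell markers, 4 rose in control and 3 in palm oil mice, among them Marco (1.62 ± 0.34 and 1.65 ± 0.30), the largest. Of all genes, 4.66% rose in control and 3.76% in palm oil mice. The 9 Kupffer cell markers ran from -0.29 to 1.62 (median 0.10) in control mice. In palm oil mice they ran from -0.11 to 1.65 (median 0.12), and Clec4f, Cd5l, Vsig4, Csf1r and C1qa were called in neither gavage group. The part of these cells in the rises of Cdkn1a and the GADD45 genes was not tested. Acinar markers ran the other way, with 0 of 9 called and median differences of -3.41 (control) and -2.95 (palm oil). With their mean as a term in the fit, Cdkn1a differed by 3.26 and 3.25, Gadd45b by 2.30 and 1.92, and Gadd45g by 2.27 and 2.59, each past the threshold.

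Mdm2 (chr10:117688875-117710758) rose by much less. Its values ran from 4.50 to 5.39 (median 5.08) in control basal and from 5.38 to 5.52 (median 5.42) in control clamped mice. Those of palm oil mice ran from 4.69 to 5.38 (median 5.23) and from 5.29 to 5.64 (median 5.56). The clamped control mice were close together, with an SD of 0.06 against 0.30 in control basal mice, and 5 of those 7 arrays lay above every basal one. Of the palm oil clamped arrays 7 of 9 did, with SDs of 0.13 clamped and 0.25 basal.

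The rise of Mdm2 was 0.40 ± 0.12 in control mice, or 1.32-fold (1.12 to 1.55, limma adjusted p = 0.0216), and 0.37 ± 0.10 in palm oil mice, or 1.29-fold (1.12 to 1.49, limma adjusted p = 0.0197). In control mice it moved with the arrays of narrow spread: basal means were 4.87 in animals numbered 44 or higher and 5.24 in the others, and without the former the difference was 0.19 (limma adjusted p = 0.462). Palm oil basal means were 5.10 and 5.17, and without the arrays of narrow spread the palm oil difference was 0.34 (limma adjusted p = 0.0209). In control mice the call also ended in limma without control basal replicate 5 (0.36, adjusted p = 0.0569) or replicate 6 (0.31, adjusted p = 0.0720), with the compared groups alone (adjusted p = 0.0629) and after a term for acinar transcripts was added (0.35, adjusted p = 0.0959). The palm oil call ended in limma without palm oil basal replicate 6 (0.31), with that term (0.32, adjusted p = 0.0854) and without the 12 arrays with many acinar transcripts (0.25, adjusted p = 0.195). With the narrow arrays as a block, Mdm2 differed by 0.28 in control and 0.30 in palm oil mice (limma adjusted p = 0.196 and 0.0780).

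Btg1 (chr10:96617001-96622813) did not pass in either gavage group. Its values ran from 3.07 to 4.71 (median 4.05) in control basal and from 3.75 to 4.75 (median 3.93) in control clamped mice, and from 3.23 to 4.00 (median 3.84) and 3.71 to 4.30 (median 4.10) in palm oil mice. The difference was 0.12 ± 0.17 in control mice, with a 95% interval of -0.24 to 0.47. In palm oil mice it was 0.32 ± 0.15, with an interval of 0.01 to 0.63 (limma adjusted p = 0.248), and 6 of 9 clamped arrays lay above the basal range.

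The closely related Btg2, also antiproliferative and inducible by p53, rose by 3.46 ± 0.31 in control mice, or 11.0-fold (limma adjusted p = 1.99e-09), and by 3.32 ± 0.27 in palm oil mice, or 9.98-fold (limma adjusted p = 1.87e-10). Its control values ran from 3.84 to 6.03 basal and from 7.07 to 9.02 clamped. It was the only one of 6 measured BTG, TOB and deadenylase partner genes, Btg1 aside, to pass. Of all genes, 8.75% passed in control and 7.57% in palm oil mice.

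**Figure D2:**
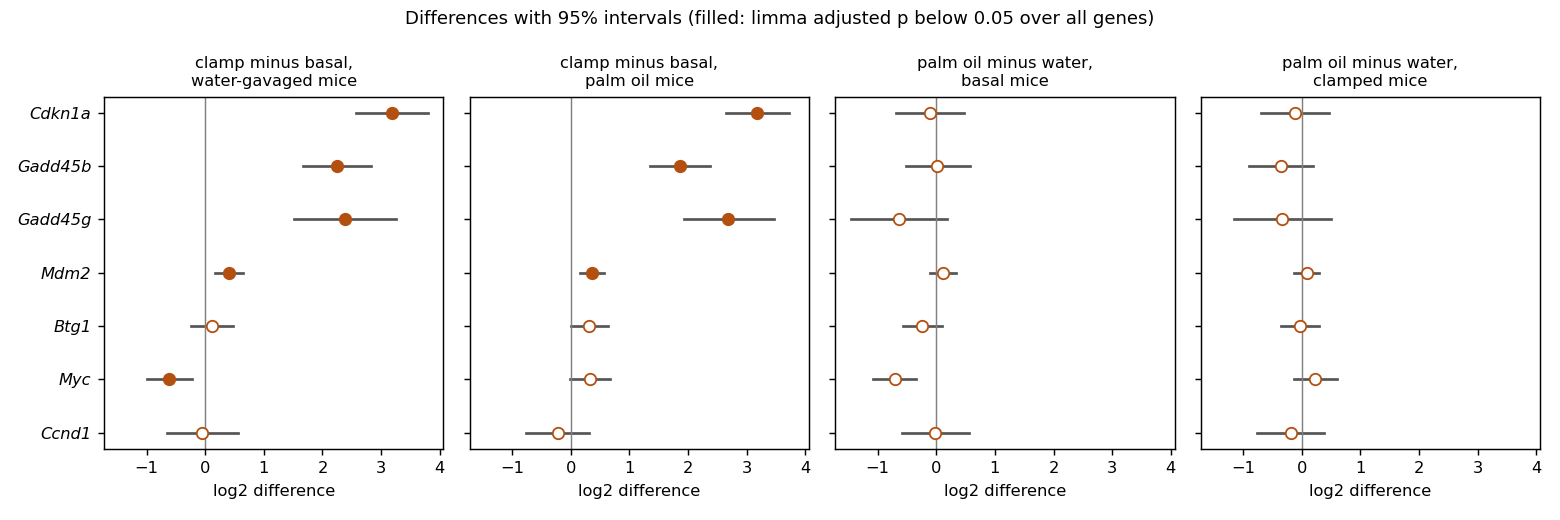
Log2 differences of the 7 genes with 95% intervals in 4 comparisons, each with filled points where limma's p adjusted over all genes was below 0.05. Cdkn1a, Gadd45b and Gadd45g stand between 1.87 and 3.19 in both clamp comparisons, while all 7 genes have open points in both gavage comparisons.

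Of the genes that drive G1 entry, Ccnd1 (chr7:144929931-144939831) did not differ beyond its spread. Its values ran from 4.04 to 5.67 (median 4.90) in control basal, 3.94 to 6.01 (median 4.46) in control clamped, 4.18 to 5.96 (median 4.42) in palm oil basal and 3.89 to 5.53 (median 4.37) in palm oil clamped mice, and all groups overlapped. The clamp difference was -0.05 ± 0.30 in control mice, with an interval of -0.65 to 0.56, and -0.22 ± 0.26 in palm oil mice, with an interval of -0.76 to 0.31. Palm oil basal means were 4.46 in animals numbered below 44 and 5.32 in the others, and the palm oil difference was 0.07 without the latter and -0.80 without the former (SE 0.35, limma adjusted p = 0.170).

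Myc (chr15:61985341-61990361) had clamp differences of opposite sign in the gavage groups. Its values in control basal mice ran from 3.23 to 4.33 (median 3.44) and in control clamped mice from 2.18 to 3.75 (median 3.10). The palm oil groups ran from 2.59 to 3.31 (median 3.02) basal and from 2.75 to 3.85 (median 3.39) clamped. Control basal mice had the highest mean, 3.69, and palm oil basal mice the lowest, 2.98, with the palm oil clamped (3.31) and control clamped (3.08) mice between them. In control mice 4 of 7 clamped arrays lay below the basal range, and in palm oil mice 6 of 9 lay above it.

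Myc fell by 0.61 on the log2 scale in control mice (SE 0.19), to 0.653 of its basal signal (95% interval 0.499 to 0.856, limma adjusted p = 0.0379). Its palm oil difference was 0.33 ± 0.17 (interval -0.02 to 0.67), which did not pass. The fall in control mice lost its call in limma without control basal replicate 3, 4 or 6 or control clamped replicate 1, 4, 6 or 7 (differences of -0.62 to -0.46, adjusted p of 0.0531 to 0.111). It also did not pass in 10 of the 15 other settings, among them arrays centred on 1 median (-0.58, adjusted p = 0.0587), the compared groups alone (adjusted p = 0.126) and the exact rank sum test (adjusted p = 0.157).

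The next comparison asked whether palm oil had changed these genes. None of the 7 passed in basal or in clamped mice, and 0% of all genes did in either state. Without adjustment, 1134 genes had p under 0.05 in basal and 781 in clamped mice in limma, and an exact rank sum test also called none of the 7. None of the 7 was separated by gavage without overlap. In basal mice 0.00902% of all genes were separated upwards and 0.00451% downwards, and in clamped mice 0% and 0.00902%.

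Myc had the largest basal palm oil difference of the 7, -0.71 ± 0.18 (interval -1.08 to -0.34, n = 9 and 7), the 7th most negative of all genes by size. Its limma p was 0.000388 before adjustment and 0.960 after it. Of 9 palm oil basal arrays, 7 lay below every control basal array, and the other two reached 3.29 and 3.31, just above the lowest control value of 3.23. Among animals numbered below 44 the difference was -0.63 (6 palm oil and 3 control mice), and among those numbered 44 or higher -0.85 (3 and 4 mice), so that it had the same sign in both parts of the basal arrays. Over the 15 other settings it stayed between -0.85 and -0.63, with limma or rank sum adjusted p of 0.405 to 1.00, and with any 1 array left out between -0.79 and -0.61.

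In clamped mice the palm oil difference of Myc was 0.23 ± 0.18 (interval -0.14 to 0.60). The change of the palm oil difference under the clamp, tested as an interaction, was 0.94 ± 0.26 (interval 0.42 to 1.46), the 8th most positive interaction of all genes by size. Its limma p was 0.000795 before adjustment and 1.00 after it, and no gene passed that test. The interaction, the fall of Myc in control mice and its basal palm oil difference share the control basal mice and are not independent of each other.

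**Figure D3:**
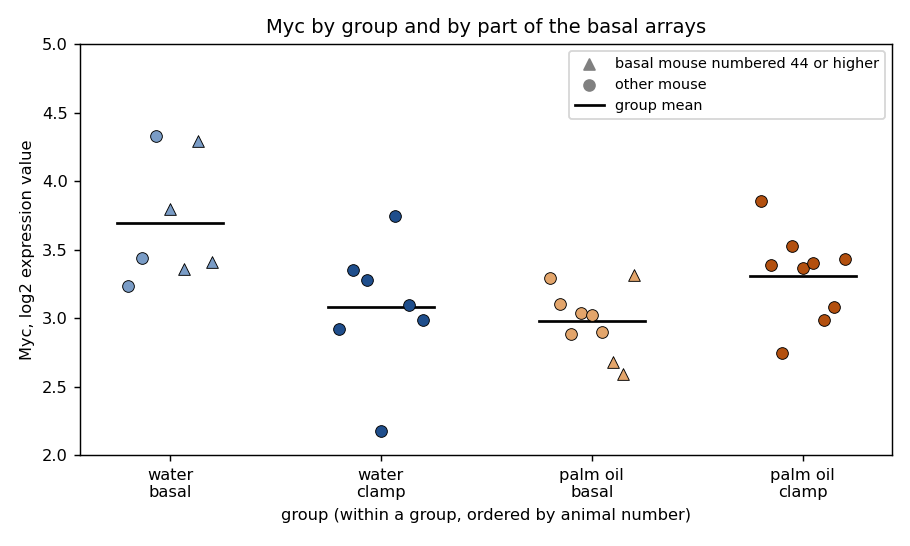
Log2 expression values of Myc by group, ordered within a group by animal number, with triangles for basal mice numbered 44 or higher, circles for all other mice and a line for the group mean. The control basal mean of 3.69 is the highest, and 7 of 9 palm oil basal mice lie below all 7 control basal mice.

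The other genes gave smaller or less even palm oil differences. Gadd45g differed by -0.64 ± 0.40 in basal mice (interval -1.46 to 0.18), -0.51 in animals numbered below 44 and -1.20 in those numbered 44 or higher, and by -0.33 ± 0.40 in clamped mice. Gadd45b differed by 0.02 ± 0.27 and -0.35 ± 0.27, Cdkn1a by -0.11 ± 0.29 and -0.12 ± 0.29, and Btg1 by -0.24 ± 0.16 and -0.03 ± 0.16, basal first. Mdm2 differed by 0.12 ± 0.11 and 0.08 ± 0.11, and Ccnd1 by -0.02 ± 0.28 and -0.19 ± 0.28. For Cdkn1a the interval was -0.69 to 0.47 in basal and -0.70 to 0.46 in clamped mice. The basal difference changed sign with the animal numbers for 5 of these 6 genes. Below 44 and at 44 or higher it was -0.54 and 0.22 for Cdkn1a, -0.12 and 0.16 for Gadd45b, -0.07 and 0.23 for Mdm2, 0.08 and -0.52 for Btg1, and -0.19 and 0.47 for Ccnd1. Each of these values rests on 3 to 6 mice a group and was not called.

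Interactions of the other 6 genes lay between -0.37 (Gadd45b) and 0.31 (Gadd45g). That of Cdkn1a was -0.01 ± 0.40, with an interval of -0.83 to 0.81.

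Related genes were grouped by role. Of all genes, 4.66% rose and 4.09% fell in control mice, and 3.76% rose and 3.80% fell in palm oil mice. These shares stand beside every list count that follows. Of 22 measured p53 pathway genes beside the members, 5 rose and 1 fell in control mice, and 4 rose and 1 fell in palm oil mice, with medians of 0.18 and 0.09. Ddit4, an inhibitor of mTORC1, rose by 2.26 ± 0.32 in control and 2.47 ± 0.28 in palm oil mice (limma adjusted p = 6.93e-06 and 1.31e-07). Trp53inp1, a stress-induced partner of p53, rose by 1.76 ± 0.24 and 2.13 ± 0.21 (limma adjusted p = 3.59e-06 and 7.76e-09). The stress kinase gene Plk3 rose by 1.80 ± 0.26 and 1.79 ± 0.23 (limma adjusted p = 1.19e-05 and 1.44e-06). The remaining calls, named after their values were seen, were the death receptor gene Fas (0.97 ± 0.19 and 0.73 ± 0.17) and Zmat3 in control mice alone (0.73 ± 0.17, against 0.22 ± 0.15 in palm oil mice, a difference not called as an interaction). The desmosomal gene Perp fell by 0.51 and by 0.44. The other 16 and 17 genes did not pass. Trp53 and Bax are not analysed here.

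No other CDK inhibitor gene passed in either gavage group, where 8.75% (control) and 7.57% (palm oil) of all genes did. In each group 2 or 3 of the 7 measured ones lay below the median gene, where a change in RNA can be missed. The 7 measured ones differed by -0.32 to 0.12 in control and by -0.20 to 0.23 in palm oil mice, and Cdkn1b, the gene of p27, named after its values were seen, by 0.12 ± 0.15 and 0.19 ± 0.13.

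Of 14 measured G1 cyclins, CDKs, pocket proteins and E2F factors, 2 rose and 1 fell in control mice, and 1 rose and 1 fell in palm oil mice. Ccne1, which encodes cyclin E1, rose by 1.05 ± 0.22 in control and 0.65 ± 0.20 in palm oil mice (limma adjusted p = 0.00165 and 0.0339). Its control values ran from 1.52 to 3.07 basal and from 2.50 to 3.67 clamped, close to the median gene at 1.83, where array values are compressed. Cdk6, a partner of D-type cyclins, fell by 0.78 and by 0.80 on the log2 scale (limma adjusted p = 0.000732 and 9.98e-05). E2f4, a repressive E2F factor, rose in control mice (0.49 ± 0.16, limma adjusted p = 0.0417) and differed by 0.30 ± 0.14 in palm oil mice.

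Genes of the later cell cycle phases gave 1 call, against 8.75% of all genes called in control and 7.57% in palm oil mice. Of 21 measured S, G2 and M phase genes none passed in control mice, and in palm oil mice Mcm3, a subunit of the replicative helicase, fell by 0.48 (limma adjusted p = 0.00613) at a mean level of 1.77, below the median gene, with a difference of -0.17 ± 0.13 in control mice. Their median difference was -0.05 in both gavage groups, and 10 or 11 of the 21 lay below the median gene in each group, where a change in RNA can be missed. Mki67, the proliferation marker, named after its values were seen, differed by 0.06 ± 0.16 and 0.13 ± 0.14.

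**Figure D4:**
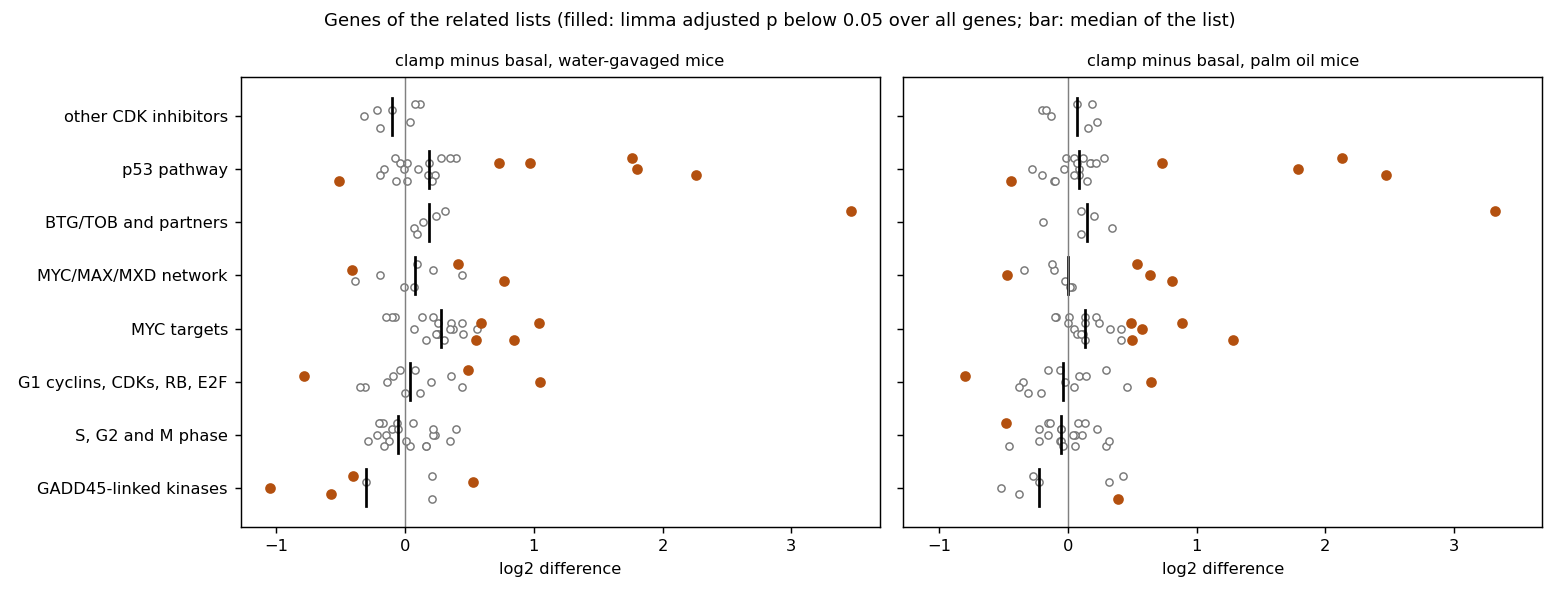
Log2 differences between clamped and basal mice for the genes of 8 related lists, with 1 point per gene, filled where limma's p adjusted over all genes was below 0.05, and a bar at the median of the list. The S, G2 and M phase list centres on -0.05 in both panels with 0 and 1 filled points, while the p53 pathway list has 5 and 4 filled points to the right of 0.

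In the network of MYC partners and antagonists, 2 of 10 genes rose and 1 fell in control mice, and 3 rose and 1 fell in palm oil mice. Mxd1, which competes with MYC for MAX, rose by 0.77 ± 0.18 and 0.81 ± 0.16 (limma adjusted p = 0.00376 and 0.000602), and Max itself by 0.41 ± 0.11 and 0.54 ± 0.10 (limma adjusted p = 0.0124 and 0.000157). Mnt, another MAX partner, rose in palm oil mice (0.64 ± 0.14, limma adjusted p = 0.00207) and had a difference of 0.44 ± 0.16 in control mice. The antagonist Mxi1 fell by 0.41 in control mice (limma adjusted p = 0.0405) and differed by -0.34 in palm oil mice. Mycl, named after its values were seen, fell by 0.47 in palm oil mice (limma adjusted p = 0.00568) and differed by -0.19 ± 0.13 in control mice. Its mean level was 1.37, below the median gene, where array values are compressed.

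Of 22 measured MYC target genes, 4 rose in control mice and 5 after palm oil and none fell, with medians of 0.28 and 0.13. Nop58, a box C/D ribonucleoprotein gene, rose by 1.04 ± 0.23 and 0.89 ± 0.20, and Gnl3, which encodes nucleostemin, by 0.55 ± 0.12 and 0.50 ± 0.10. Ldha (lactate dehydrogenase A) rose by 0.59 ± 0.12 and 0.49 ± 0.11, and Tfrc, the transferrin receptor, by 0.85 ± 0.19 and 1.28 ± 0.17. Rrs1, a ribosome assembly gene named after its values were seen, rose in palm oil mice (0.58 ± 0.14) and differed by 0.35 ± 0.15 in control mice.

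Among 7 measured kinases linked to GADD45 signalling, 1 rose and 3 fell in control mice, and 1 rose in palm oil mice. Map3k4, the kinase that GADD45 proteins bind, fell by 0.57 in control mice (limma adjusted p = 0.00914) and differed by -0.38 ± 0.13 in palm oil mice. In control mice Map2k6 fell by 1.05 (limma adjusted p = 0.00765), Map2k4 rose by 0.53 ± 0.13 (limma adjusted p = 0.00693) and Map2k3, named after its values were seen, fell by 0.40. Their palm oil differences had the same signs without passing, at -0.52 ± 0.23, 0.32 ± 0.12 and -0.27 ± 0.11. The p38 gene Mapk14 rose by 0.39 ± 0.10 in palm oil mice (limma adjusted p = 0.0159) and differed by 0.21 ± 0.12 in control mice. No interaction was called for any of these genes. The lists gave no call in either palm oil comparison.

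Within groups the 7 genes were only loosely related. The deviations from the group means over the 32 arrays, which share the normalization, gave Pearson r of -0.34 to 0.48 over the 21 pairs, and these are given as a description. The highest were Cdkn1a with Ccnd1 (r = 0.48, Spearman rho = 0.46) and Cdkn1a with Gadd45g (r = 0.44, rho = 0.42). Gadd45b and Gadd45g had r = 0.28, and Cdkn1a and Mdm2 r = 0.11. A single mouse, control clamped replicate 6, held the highest values of both Cdkn1a (8.78) and Ccnd1 (6.01) and the lowest Gadd45b value of its group (5.07).

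By the same measure, over 10341 other genes at or above the median level, the genes most like Gadd45g were Nedd4l and Il1r1 (r = 0.70 each). Both rose under the clamp, Il1r1, the interleukin 1 receptor gene, by 2.15 ± 0.18 in control mice and 2.33 ± 0.16 after palm oil, and Nedd4l by 1.13 ± 0.19 and 0.91 ± 0.17. The nearest to Gadd45b were Pid1 (r = 0.68) and Taf5 (r = 0.67), and to Cdkn1a AA986860 and Gpt2 (r = 0.66 each). The nearest to Mdm2 were Csnk2a1 (r = 0.78) and Med17 (r = 0.75), to Ccnd1 Bco1 and Plekhg6 (r = 0.71 each), to Btg1 Fam222b (r = 0.59) and Tcim (r = 0.56), and to Myc Exd1 and Phf7 (r = 0.58 each). Most of these neighbours were not called under the clamp in either gavage group. Pid1 rose by 0.86 and 0.75, and Plekhg6 differed by -0.70 in both. Taf5 was called in control mice alone (0.47) and AA986860 in palm oil mice alone (0.74). As the highest of 10341 genes, these r values are raised by the selection itself.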

How the data were processed

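Liver RNA of 32 mice, 1 Affymetrix mouse gene array each, was deposited as log2 values, which the authors made by RMA; the submitters' processing notes name Affymetrix Expression Console, version 1.3.0.187. RMA corrects background, normalizes between arrays and summarises probe sets, and compresses low values. The values were used as deposited. Of 41345 rows, the platform annotation paired 23521 with 1 gene symbol, 1814 with several and 16010 with none listed. The row with the highest mean was kept per symbol, which left 22180 genes. Groups came from the sample titles.

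Tests used limma 3.58.1 in R 4.3.3 (lmFit and eBayes, 1 mean per group, 28 residual degrees of freedom), with Benjamini-Hochberg adjustment over all genes, a threshold of 0.05 and 95% intervals. Errors after ± are standard errors, and n is given at the first difference. The functions were tested on simulated data. The members, lists, motifs and alternatives were chosen with earlier results of these data known. Named genes were the members, up to 3 called genes per list and gavage group with the smallest p, and the 2 genes most like each member among the brighter genes, with exceptions stated. Promoter windows and positions are those of RefSeq (GRCm38.p6), matched by symbol for 6 of the 8 members. Alternatives covered probe sets, normalization, filters, the prior, array weights, blocks, the test, acinar transcripts and left-out arrays.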

Additional observations from a re-analysis of the deposited data

Results flagged for a closer look

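In a check of 108 sets of values, the 4 groups of the 7 members and of 20 other named genes, 3 sets held a mouse far from the rest of its group. Chance gives about 1 in 20. Gadd45g was at 2.58 in control basal replicate 5, while the other 6 control basal mice lay between 3.95 and 4.89. Control clamped replicate 6 was low for Plk3 (7.62, the others 8.72 to 9.14) and for Btg2 (7.07, the others 8.37 to 9.02).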

How the results depend on the processing

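Of 1120 member differences with 1 array left out, 1110 kept their direction and side of the threshold or, where not called, changed sign by less than 1 standard error, and 10 lost their call. Of 504 under the other alternatives, 475 did so, 17 lost their call and 12 uncalled values changed sign by more than that. No called difference reversed. The count of members called in control clamped against basal mice, 5 in the main analysis, was 3 with the compared groups alone, 3 with the narrow basal arrays as a block and 3 without them, and with 1 array left out it ranged from 3 to 5. Cdkn1a, Gadd45b and Gadd45g were called in each of these settings, and the calls lost were those of Myc and Mdm2. The cause was not tested. In palm oil mice the count, 4, was 3 or 4 in every setting, and it stayed 0 in the gavage comparisons and the interaction. With the replicate number as a block the counts were 4 and 4, and Myc in control mice lost its call (adjusted p = 0.0528). It changed no other call of a member. Same-numbered mice of the groups compared were not alike in every pair: their deviations correlated by -0.23 to 0.29, and no comparison had every pair above 0.1. For palm oil against control in basal mice, 5 of 7 pairs exceeded 0.1, and 2 matched best with their own number. In clamped mice 1 of 7 pairs exceeded 0.1. For clamped against basal mice, 0 of 7 did in control and 3 of 9 in palm oil mice. Setting the basal arrays numbered below 44 aside was added after the data had been seen. The compared groups alone and the rank sum test were not run for the interaction. Low signal, as in many S, G2 and M phase genes, limits what these arrays can show.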
